A study of Mus musculus with 12 samples.

Results

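On an array that measures parts of exons and exon junctions, 18694 of 719071 rows carried 2 or more gene symbols in the platform annotation. They comprised 11152 rows for parts of exons and 7542 rows for junctions, while 580167 rows carried 1 symbol and 120210 carried none. Rows with the same full string of symbols in the same order were grouped, which gave 2701 strings, and the value of a string on an array was the median of its rows on the log2 scale. The symbols of a string are joined here by a slash in the order of the annotation. Most strings were short, with 1998 (74.0%) of 2 symbols, 74 of 10 or more and at most 20, and 1092 strings rested on a single row. The description of these rows as shared by several genes did not hold for all of them. After the symbols were brought up to date, 736 strings (5837 rows) gave an older and a newer name of 1 current gene, such as Aoc1/Abp1 and Slc8b1/Slc24a6, and 1965 strings (12857 rows) named several current genes.

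Per the sample titles and design, RNA came from mucosa of male C57BL6/J mice, 4 to 6 weeks old and untreated, in 4 groups of 3 arrays each. A further label field describes laser-dissected material as coming from sections of tumors, which conflicts with the rest of the labels and could not be settled here. The groups were ileum and colon mucosa of FSPCre-PPARB -/- mice, called knockout here, and ileum and colon mucosa of their PPARB flox/flox littermates, called floxed. The floxed gene is Ppard, which encodes the nuclear receptor PPARβ/δ, and the FSP promoter that drives Cre is known for activity in fibroblasts, so a deletion in epithelium is not implied by the labels. The labels give the sample numbers but do not state separate animals, so a p-value here reflects how much the arrays of a group vary, and part of that variation may be technical. Ileum enterocyte markers averaged 7.31 to 7.77 in knockout ileum and 6.59 to 7.68 in floxed ileum, against 4.34 to 4.92 in knockout colon and 3.37 to 4.81 in floxed colon. On average, colon epithelium markers ran the other way. Single markers varied, since colon marker Car1 differed by -6.64 between ileum and colon on the log2 scale. Colon markers Car4 (-0.17) and Hoxd10 (0.06) and ileum marker Lct (0.06) differed little. Ileum knockout sample 1 and colon floxed sample 2 stood apart from the rest on principal components of all strings and single genes. Where leaving out either moved a value given below by over 1.5 times or ended a call, the value without it is given, and the number of arrays limits the precision throughout.

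Rows can carry several symbols for different reasons. Genes that arose by duplication can be so alike that 1 probe set reads all copies, neighbouring or overlapping genes can share an exon or a readthrough transcript, and a processed pseudogene can copy the coding sequence of its parent. A microRNA or small nucleolar RNA inside a host gene also gives a pair of symbols. In such rows the array reports the sum of what hybridised and cannot assign it to a single gene. Among strings of several current genes, 506 named genes whose positions overlap, 389 named genes within 100000 bases of each other, 735 named genes farther apart on 1 chromosome and 277 named genes on different chromosomes.

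The alpha-defensins gave the 10 largest positive differences among the called strings, so their gene starts are shown first. These sequences lie mostly before the gene start and are not those of the array rows, which could not be placed. Alpha-defensins, or cryptdins, are small antimicrobial peptides that Paneth cells secrete at the base of small intestinal crypts, and in the mouse their genes form a cluster of near-identical copies on chromosome 8. Start windows of 300 bases (250 before to 50 after the gene start, RefSeq, GRCm38.p6) are shown for one gene of each of 4 pairs or groups. Capitals mark TATAAA, the TATA box motif, and CTTTGAT or its reverse complement ATCAAAG, a motif bound by the TCF factors of Wnt signalling. The windows lie at chr8:21054790-21055089 (plus strand, Defa23), chr8:21509008-21509307 (plus strand, Defa20), chr8:21427178-21427477 (plus strand, Defa36) and chr8:21456468-21456767 (minus strand, Defa42).
Defa23: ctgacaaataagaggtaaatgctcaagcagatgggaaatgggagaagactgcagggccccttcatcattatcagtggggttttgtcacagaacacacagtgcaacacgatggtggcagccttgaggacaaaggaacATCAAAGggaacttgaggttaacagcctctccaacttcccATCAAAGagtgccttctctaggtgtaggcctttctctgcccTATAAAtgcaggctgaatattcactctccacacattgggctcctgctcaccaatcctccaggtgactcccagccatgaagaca
Defa20: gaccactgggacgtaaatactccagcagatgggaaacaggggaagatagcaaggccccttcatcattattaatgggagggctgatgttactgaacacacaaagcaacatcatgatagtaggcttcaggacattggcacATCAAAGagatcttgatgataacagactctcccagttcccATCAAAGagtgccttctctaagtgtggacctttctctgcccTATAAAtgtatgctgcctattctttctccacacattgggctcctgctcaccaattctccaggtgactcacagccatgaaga
Defa36: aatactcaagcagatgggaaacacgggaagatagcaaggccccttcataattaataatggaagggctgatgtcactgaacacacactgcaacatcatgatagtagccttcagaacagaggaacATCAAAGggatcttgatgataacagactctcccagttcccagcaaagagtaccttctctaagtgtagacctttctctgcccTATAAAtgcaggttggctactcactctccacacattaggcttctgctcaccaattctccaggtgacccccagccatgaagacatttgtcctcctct
Defa42: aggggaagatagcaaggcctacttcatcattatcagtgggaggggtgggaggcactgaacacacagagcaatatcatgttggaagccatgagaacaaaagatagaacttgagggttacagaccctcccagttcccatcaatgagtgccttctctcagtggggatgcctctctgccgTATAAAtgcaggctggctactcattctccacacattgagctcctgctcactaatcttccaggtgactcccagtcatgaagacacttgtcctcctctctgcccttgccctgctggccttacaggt
The window of Defa23 was the same letter for letter as that of Defa31 (listed as Defa-rs7), that of Defa20 as that of Defa2, that of Defa36 as that of Defa37 (Gm21498 and Gm14850), and that of Defa42 as that of Defa43 (Gm7849 and Gm7861). Defa20 and Defa32 (Gm15308) shared 298 of 302 aligned positions. Between the 4 printed windows the match was lower, from 257 of 315 positions for Defa20 and Defa36 to 207 of 346 for Defa23 and Defa42. All 4 windows hold TATAAA, and those of Defa23, Defa20 and Defa36 hold CTTTGAT, while that of Defa42 does not. Counted on both strands over 32851 mouse start windows of this length, TATAAA occurred in 13.62% and CTTTGAT in 3.73%. A match of letters is a description and not a binding site.

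In the comparison of ileum with colon averaged over both genotypes, 10 of 11 alpha-defensin strings were higher in ileum, with a median difference of 4.63 on the log2 scale over the 11, against -0.01 over all features tested. A feature was a string of 1 symbol or of several, 34084 in all, and limma's test was adjusted over all of them with the Benjamini-Hochberg method and called at 0.05. Of all features 0.986% were called higher in this comparison. In mucosa samples, more Paneth cells and more RNA per Paneth cell cannot be told apart. The Paneth cell markers that were not members, Lyz1, Mmp7 and Itln1, averaged 4.98 to 7.90 in knockout ileum and 4.63 to 5.79 in floxed ileum, against 3.67 to 4.46 in knockout colon and 3.57 to 3.97 in floxed colon. Of these 3 genes, lysozyme Lyz1 was called, with a difference of 2.85 (adjusted p = 0.00158).

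Defa17/Gm15284/Defa3, with 4 rows, ran from 8.43 to 12.13 in the 6 ileum arrays with a median of 9.61, and from 3.55 to 4.72 in the 6 colon arrays with a median of 3.94. The difference was 5.73 ± 0.48 (SE), a 53.2-fold higher level (adjusted p = 1.95e-05). Gm15284 is now named Defa30, and its 3 own rows gave 5.8 ± 0.51. The string of the same 3 symbols in another order, Defa3/Gm15284/Defa17, gave 5.50. Defa-rs7/Defa23 ran from 8.11 to 11.98 (median 9.49) in ileum and from 3.51 to 5.31 (median 3.72) in colon, a difference of 5.61 ± 0.51. Defa24/Gm15284 ran from 8.16 to 11.71 (median 8.99) in ileum and from 3.31 to 5.13 (median 3.80) in colon, a difference of 5.34 ± 0.46. No ileum array overlapped a colon array in any of these strings.

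Defa2/Defcr20, with 2 rows, ran from 7.83 to 10.39 (median 8.87) in ileum and from 3.58 to 4.17 (median 3.90) in colon, and differed by 5.0 ± 0.34. Gm14850/Gm21498, now Defa37 and Defa36, differed by 4.63 ± 0.38. Within it the rows disagreed by kind, since 6 exon rows gave differences of 2.81 to 6.18 while both junction rows, which held identical values, gave -0.19. Gm7861/Gm7849, now Defa43 and Defa42, ran from 5.59 to 8.50 (median 6.94) in ileum and from 2.05 to 3.05 (median 2.54) in colon, and all 10 of its rows were called. Its difference was 4.44 ± 0.39, and it was called higher in ileum. The start windows of this pair lack CTTTGAT, and whether the motif plays a part was not tested.

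Defa20 and Gm15308, which is now Defa32, gave different medians in either order of the symbols. Of 5 rows each, 4 of Defa20/Gm15308 and 5 of Gm15308/Defa20 held values also found in another string or gene. The values of both orders may therefore not be separate readings. Defa20/Gm15308 ran from 6.09 to 9.81 (median 7.66) in ileum and from 2.91 to 3.96 (median 3.52) in colon, and differed by 4.09 ± 0.48. Gm15308/Defa20 ran from 5.06 to 7.91 (median 5.75) in ileum and from 2.89 to 3.59 (median 3.20) in colon, and differed by 2.81 ± 0.35. Gm21002/Defa2, where Gm21002 is now Defa33, gave the smallest called defensin difference, 2.03 ± 0.17, with ileum arrays from 5.17 to 6.23 (median 5.85) and colon arrays from 3.18 to 4.07 (median 3.81). Each of the strings Defa20/Gm15308, Gm15308/Defa20 and Gm21002/Defa2 has 1 junction row, with the same values in all 3, which gave 0.27 and was not called (adjusted p = 0.872). Defa2/Gm21002/Defcr20 was the defensin string not called, at 0.21 (adjusted p = 0.85), although 1 of its 3 rows ran from 7.62 to 9.56 (median 8.37) in ileum and from 5.93 to 6.54 (median 6.18) in colon and was called at 2.19 (adjusted p = 0.000416).

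**Figure D1:**
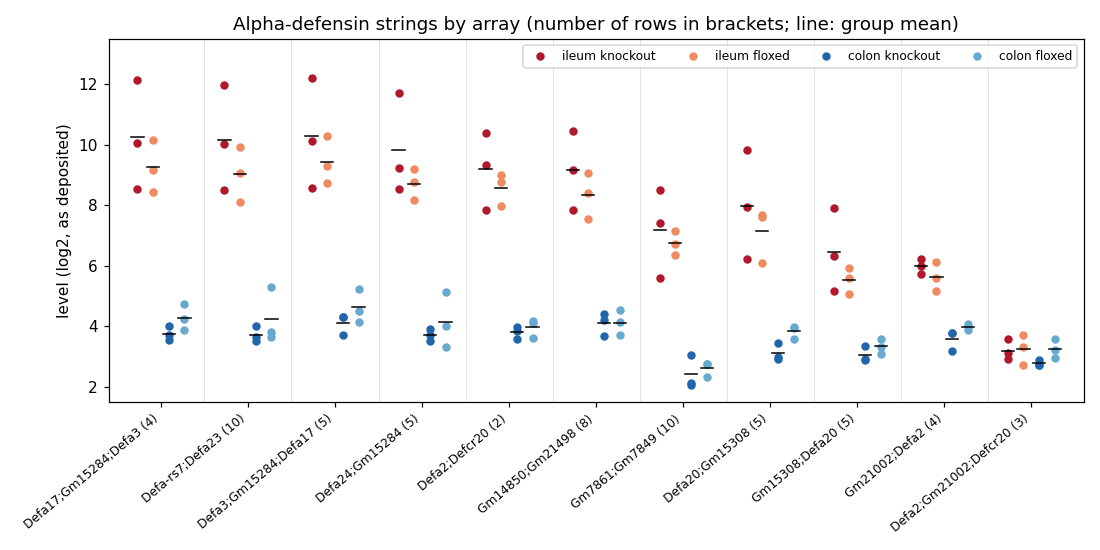
Log2 level of the 11 alpha-defensin strings (vertical axis) on each of the 12 arrays, by group from ileum knockout to colon floxed, with lines for group means and the number of rows in brackets. In 10 strings the 6 ileum arrays sit above the 6 colon arrays, and in Defa2/Gm21002/Defcr20 they overlap.

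These strings were not independent of each other. Of the 61 alpha-defensin rows, 41 (67.2%) held values that were identical on all 12 arrays to those of another row, and 38 distinct sets of values remained. Tested as single rows over all 719071 rows, 51 of the 61 were called higher in ileum, by 1.68 to 7.66, which came to 35 of the 38 distinct sets. Of all rows 0.592% were called higher in this comparison. Among all called strings, the 6 that shared a row with another called string were all alpha-defensins. Counting identical rows once per string, an alternative chosen after the values were seen, left every call of the report as it was.

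Between genotypes the defensin strings were not called in either tissue. In ileum, Defa17/Gm15284/Defa3 had 12.13, 8.55 and 10.06 in the knockout arrays, against 10.15, 8.43 and 9.16 in the floxed arrays. The median difference of the 11 strings was 0.85 with 10 of 11 positive, and ileum knockout sample 1 was the highest array in those 10 called between tissues. In colon the median was -0.45 with 0 of 11 positive, where Defa17/Gm15284/Defa3 had 3.55, 3.70 and 4.00 in the knockout arrays and 4.72, 4.23 and 3.88 in the floxed arrays. Without ileum knockout sample 1 the ileum median was 0.08 with 8 of 11 positive. With the brightness of each array's background probes as a covariate, and all 12 arrays, it was -0.27 with 3 of 11 positive. That background itself differed between genotypes, as given below, so here and later such a fit cannot tell background from genotype. Without ileum knockout sample 1 the regional difference of Defa17/Gm15284/Defa3 was 5.26 (adjusted p = 3.42e-06), and the other called defensin strings kept their calls.

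Averaged over both genotypes, the strings of the Ugt1a locus went the other way, with lower levels in ileum. This locus encodes enzymes that attach glucuronic acid to bilirubin, drugs and dietary compounds, and each enzyme has a first exon of its own spliced to later exons that all of them share. Of its 9 strings 3 were called lower, where 0.728% of all features were, and all 9 had a negative difference, with a median of -0.50 against -0.01 over all features. Within floxed mice none was called. There the string of 4 symbols gave 0.46 and that of 3 symbols 0.17, against -1.22 and -1.16 in knockout mice. The others were negative in both genotypes. Within knockout mice only the string of 6 symbols was called by limma, at -2.28 (adjusted p = 0.00278), against -1.04 in floxed mice. The string of 9 symbols, read by 13 rows, ran from 4.48 to 6.60 (median 5.76) in ileum and from 5.55 to 8.98 (median 7.88) in colon. It was 3.74-fold lower in ileum, a difference of -1.90 ± 0.42 (adjusted p = 0.0403), and the arrays overlapped because colon floxed sample 2 stood at 5.55. Without that array the difference was -2.28 (adjusted p = 0.00344), whereas the call was lost when any of 8 other arrays was left out, at -1.97 to -1.64 (colon knockout 1 and 2, colon floxed 1 and 3, ileum knockout 2 and 3, ileum floxed 2 and 3).

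The string of 6 symbols, with 7 junction rows, ran from 2.01 to 2.94 (median 2.50) in ileum and from 2.91 to 5.01 (median 4.18) in colon, a difference of -1.66 ± 0.22 (adjusted p = 0.00125). Ugt1a6b/Ugt1a6a, a pair whose products conjugate phenols, ran from 3.78 to 4.77 (median 4.24) in ileum and from 4.31 to 6.32 (median 5.49) in colon, and differed by -1.21 ± 0.23 (adjusted p = 0.0164). All 3 of its rows were called, at -2.15, -1.38 and -1.02, and the call of the string was lost without colon knockout sample 2, at -1.14. Of the 30 rows of the 9 strings, 15 were called lower, from -2.15 to -1.02, where 0.348% of all rows were, and these were 12 of 25 distinct sets of values. The strings of 8 and of 7 symbols that hold Ugt1a8 had 1 row each with the same values on every array.

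Rows of single Ugt1a genes were less uniform. Ugt1a6a, with 7 own rows, ran from 2.42 to 3.08 (median 2.80) in ileum and from 3.75 to 4.44 (median 4.14) in colon, and fell by 1.36 ± 0.13 on the log2 scale (adjusted p = 7.37e-05). The other 8 genes were not called. Their differences were -0.86 for Ugt1a1, -0.85 for Ugt1a5, -0.66 for Ugt1a6b, -0.60 for Ugt1a10, -0.47 for Ugt1a7c, -0.19 for Ugt1a9, -0.13 for Ugt1a2 and -0.07 for Ugt1a8. Ugt1a2, Ugt1a5, Ugt1a8 and Ugt1a9 had 1 own row each. Over all arrays Ugt1a9 ran from 1.66 to 2.81 and Ugt1a8 from 2.37 to 2.91, low levels that limit what their rows can show. Between genotypes 8 of the 9 strings had a positive difference averaged over both tissues, with a median of 0.70, and none was called. The median was 0.51 without colon floxed sample 2, 0.72 without ileum knockout sample 1 and 0.22 with the array background as covariate. In ileum alone it was 0.48, and -0.37 with that covariate. In colon the string of 6 symbols had 4.80, 5.01 and 4.32 in the knockout arrays, against 3.75, 2.91 and 4.04 in the floxed arrays. That difference was 1.15 ± 0.32 (adjusted p = 0.849), and 0.82 without colon floxed sample 2.

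**Figure D2:**
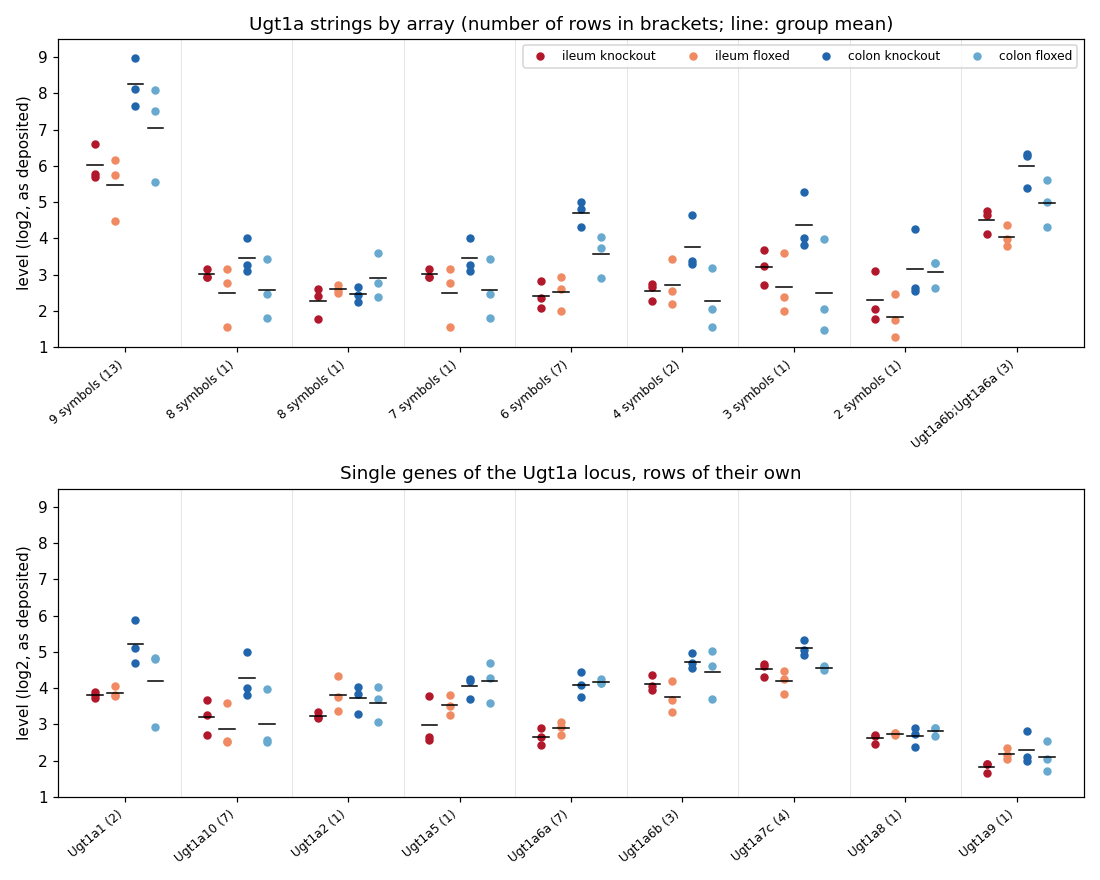
Log2 level of the 9 strings of the Ugt1a locus (upper panel) and of 9 of its single genes by their own rows (lower panel) on each array, by group from ileum knockout to colon floxed, with lines for group means and the number of rows in brackets. The string of 9 symbols has ileum arrays at 4.48 to 6.60 and colon arrays at 5.55 to 8.98, and Ugt1a6a separates the tissues without overlap.

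Taking all strings, 32 were called between ileum and colon over both genotypes, 19 higher and 13 lower, which was 1.18% of the strings against 1.71% of all features. With the array background as covariate the split was 20 higher and 36 lower, and in knockout mice 16 higher and 14 lower. Within the floxed mice 13 strings were called (10 higher and 3 lower; 0.481%, against 0.566% of all features, 0.384% higher and 0.182% lower) and within the knockout mice 19 (14 higher and 5 lower; 0.703%, against 0.772%, 0.475% higher and 0.296% lower). The tissues did not overlap in 29 strings (1.07%), against 1.76% of all features. The share of strings called was below that of all features in each of these comparisons, a difference that was not tested, and 13 of the 32 belonged to the alpha-defensins or the Ugt1a locus. By kind, strings of 1 current gene were counted apart. None of the 443 strings made only of predicted genes, of the 140 of immune receptor segments or of the 40 of chemoreceptors was called. In that order their median levels were 2.55, 3.42 and 2.16, against 3.73 over all features. Levels above 4 were held by 14.2%, 37.1% and 2.5% of them, against 43.5% of all features. At an unadjusted p under 0.05 the count over all strings was 208 (7.70%), against 9.27% of all features, with 169 in floxed mice, against 6.2% of all features, and 165 in knockout mice, against 7.19%. Within 1 genotype the tissues did not overlap in 265 strings in knockout mice, against 11.3% of all features, and in 276 in floxed mice, against 11.2%.

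St6galnac6/St6galnac4 had the lowest adjusted p of all strings in this comparison. These neighbouring genes encode sialyltransferases, which add sialic acid to glycoproteins and glycolipids. The 2 shared rows ran from 4.82 to 5.13 (median 4.94) in ileum and from 7.01 to 8.14 (median 7.47) in colon, which was 6.20-fold lower in ileum (difference -2.63 ± 0.15, adjusted p = 8.4e-07). The tissues were far apart, and the ileum arrays lay within a narrow range. The 34 own rows of St6galnac6 gave -1.46 ± 0.11 (adjusted p = 8.12e-06) and the 26 own rows of St6galnac4 gave -0.33 ± 0.11, not called (adjusted p = 0.261). The 2 shared rows themselves differed by -3.88 and -1.39.

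Cyp4v3/Klkb1 pairs a fatty acid hydroxylase of the cytochrome P450 family with plasma prekallikrein, a precursor of the kallikrein system known as a liver product. Its 5 rows ran from 4.48 to 6.45 (median 5.89) in ileum and from 3.51 to 4.32 (median 3.91) in colon, 3.56-fold higher in ileum (difference 1.83 ± 0.26, adjusted p = 0.00203). The string in the reverse order, Klkb1/Cyp4v3, had 30 rows and a difference of -0.07 (adjusted p = 0.955). Own rows of Cyp4v3 gave 1.37 ± 0.16 (adjusted p = 0.000437) and the single own row of Klkb1 gave -0.09 ± 0.11. With both orders merged into 1 set of symbols the difference was 0.03, so the call rested on keeping the order of symbols apart. The call was also lost with junction rows alone.

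Other pairs could be set against their genes in the same way, and those not named by the fixed rule were chosen after their values were seen. Unc93a/Gm9992, a pair of related membrane protein genes (Gm9992 is now Unc93a2), ran from 5.13 to 6.37 (median 5.31) in ileum and from 4.07 to 4.43 (median 4.18) in colon, a difference of 1.24 ± 0.17 (adjusted p = 0.00164). Gm9992 alone gave 1.45 ± 0.21 and was called, and Unc93a alone gave 0.55 ± 0.16 and was not. Of the 22 rows of Unc93a/Gm9992, 11 held the same values on every array as rows of 1 other string or gene. The shared and own values of this pair may therefore not be separate readings. Gp1bb/Sept5 overlap, and encode a subunit of a platelet adhesion receptor and a septin of the cytoskeleton. Their shared rows differed by 0.94 ± 0.17 (adjusted p = 0.0102), own rows of Sept5 by 1.49 ± 0.22 and own rows of Gp1bb by 0.76 ± 0.13, each called. Prn/Prnp/Prnd/PRND, the prion protein gene with its neighbour, differed by -0.78 ± 0.15 (adjusted p = 0.0134), while own rows of Prnp gave 0.16 and those of Prnd 0.03, neither called, and the call of the string was lost with the mean of its rows in place of the median (-0.32). Apoc4/Apoc2 showed the reverse, with 0.03 in shared rows and 1.61 ± 0.15 (adjusted p = 3.77e-05) in own rows of Apoc2, an apolipoprotein that activates lipoprotein lipase.

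**Figure D3:**
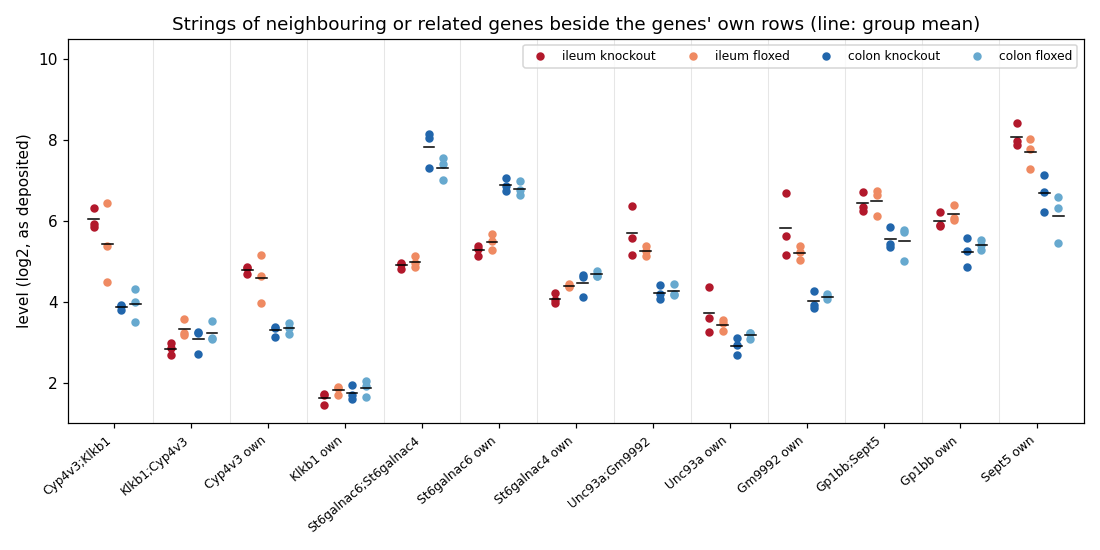
Log2 level on each array for 5 strings of neighbouring or related genes, each followed by the genes' own rows, by group from ileum knockout to colon floxed, with lines for group means. Cyp4v3/Klkb1 and own rows of Cyp4v3 are higher in ileum, while Klkb1/Cyp4v3 at -0.07 and Klkb1 at -0.09 were not called, and St6galnac6/St6galnac4 separates the tissues more widely than St6galnac6.

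Strings of several current genes with a microRNA or another small RNA numbered 268. Small RNA strings that resolved to 1 current gene are counted with that group below. Of the 268, 4 were called, 1 higher and 3 lower (1.49%, against 1.71% of all features, 0.986% higher and 0.728% lower). The row of Mir8114/Glul/mmu-mir-8114 ran from 7.54 to 8.26 (median 7.96) in ileum and from 9.13 to 9.96 (median 9.48) in colon, and fell by 1.56 ± 0.15 on the log2 scale in ileum (adjusted p = 5.29e-05). Glul encodes glutamine synthetase, and its 20 own rows gave -0.81 ± 0.15 (adjusted p = 0.0108). In GRCm38.p6, 53 of the 111 bases of the Mir8114 hairpin lie within the start window of Glul. The mature microRNA lies at chr1:153899989-153900009 on the plus strand and is given with its seed, bases 2 to 8, in capitals (RefSeq).
Mir8114: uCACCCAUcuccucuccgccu
Klhl17/Mir7658/mmu-mir-7658 ran from 5.73 to 6.21 in ileum and from 6.34 to 6.83 in colon and differed by -0.66 ± 0.11 (adjusted p = 0.00761), while the 27 own rows of Klhl17, which encodes an actin-binding adaptor protein, gave -0.10 and were not called. AF357355/Rian, a small nucleolar RNA with its non-coding host of an imprinted region, differed by -1.16 ± 0.26 (adjusted p = 0.0455), and the 97 own rows of Rian by -0.67 ± 0.14 (adjusted p = 0.0304). The call of AF357355/Rian was kept without colon knockout sample 1 (-1.34) or colon floxed sample 2 (-1.4) and lost without each of the other 10 arrays, at -1.23 to -0.98, and with the background covariate, at -1.1.

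Among the 736 strings of 1 current gene, 10 were called, 5 in each direction (1.36%, against 1.71% of all features, 0.986% higher and 0.728% lower). Muc2/MUC2, the gel-forming mucin of goblet cells, ran from 9.06 to 9.58 in ileum and from 9.19 to 11.89 in colon. It differed by -1.59 ± 0.31 (adjusted p = 0.0178), and by -1.94 (adjusted p = 5.69e-05) without colon floxed sample 2, the lowest colon array. The call was lost without colon floxed sample 3, at -1.47, or ileum floxed sample 1, at -1.55. The 86 rows that carry Muc2 alone gave -1.69 ± 0.34. Smim24/2210404O07Rik, a small membrane protein gene, was higher in ileum by 1.61 ± 0.23 (adjusted p = 0.00176), with ileum arrays from 8.17 to 9.37 and colon arrays from 6.63 to 7.92. Aoc1/Abp1, the diamine oxidase that degrades histamine, was higher by 1.51 ± 0.16 (adjusted p = 0.000162), with ileum arrays from 6.56 to 7.53 and colon arrays from 5.44 to 6.24. In junction rows alone Aoc1/Abp1 gave 0.84 and was not called (adjusted p = 0.0757).

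Btnl7/Btnl7-ps, a butyrophilin-like gene listed with its pseudogene name, was higher in ileum by 1.21 ± 0.21 (adjusted p = 0.00795), and all 16 of its rows were positive, although its junction rows alone gave 0.89 and were not called. Its relative Btnl5-ps/Btnl5 was positive in all 17 rows and gave 0.92 ± 0.24, not called (adjusted p = 0.0967). Hoxaas3/2700086A05Rik, an antisense RNA of the HoxA cluster, was lower in ileum with a difference of -0.70 ± 0.15 (adjusted p = 0.0284), and so was Foxd2os/9130206I24Rik with -0.72 ± 0.15 (adjusted p = 0.0253). In both, ileum and colon arrays overlapped, and leaving out single arrays of either tissue ended the call, 8 of 12 arrays for Hoxaas3/2700086A05Rik (-0.71 to -0.63) and 7 of 12 for Foxd2os/9130206I24Rik (-0.72 to -0.67). The call of Hoxaas3/2700086A05Rik was also lost with the mean of its rows (-0.33), exon rows alone (-0.18) and junction rows alone (-0.71), and that of Foxd2os/9130206I24Rik with junction rows alone (-0.25). By limma within genotypes, Foxd2os/9130206I24Rik gave -1.13 in floxed mice (adjusted p = 0.0319) and -0.31 in knockout mice, not called (adjusted p = 0.907). Its dependence of genotype on tissue was not called. Klk1b26/Egfbp2, a tissue kallikrein, gave -0.62 ± 0.12 (adjusted p = 0.0195), although its junction rows alone gave 0.75 and the call was lost without colon knockout sample 1 or 2, colon floxed sample 1 or ileum floxed sample 1 (-0.61 to -0.56). Slc8b1/Slc24a6, the sodium and calcium exchanger of mitochondria, differed by -0.51 ± 0.11 (adjusted p = 0.0402), with 35 of 42 rows negative and no overlap between the tissues. It lay close to the threshold, and the call was kept without ileum knockout sample 2 and lost without each of the other 11 arrays, at -0.55 to -0.46. The call was also lost with the mean of the rows (-0.34), exon rows alone (-0.38), junction rows alone (-0.64) and the background covariate (-0.47).

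Medians over rows hid some single rows. Of the 18694 rows, 149 were called between ileum and colon over both genotypes (105 higher and 44 lower, 0.797% against 0.940% of all rows), and they fell in 55 strings. In knockout mice alone 71 rows were called (58 higher and 13 lower), where 0.381% of all rows were (0.268% higher and 0.112% lower). In floxed mice alone 52 rows were called (47 higher and 5 lower), where 0.285% of all rows were (0.197% higher and 0.0887% lower). Of these strings 28 were not called, with 30 called rows among them, 18 higher and 12 lower, and 26 of the 28 had a single called row. Conversely, 5 called strings had no called row. The rows named next were chosen after their values were seen. D630013G24Rik/Arhgef38, both names of Arhgef38, a guanine nucleotide exchange factor, gave -0.38 over 10 rows, yet 1 junction row ran from 7.35 to 9.73 (median 8.34) in ileum and from 3.88 to 5.23 (median 5.02) in colon. That row differed by 3.66 (adjusted p = 0.000604).

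Cnot1/Gm6158 gave 0.28 over 107 rows, and 1 junction row of this scaffold of the deadenylase complex ran from 6.12 to 8.64 (median 7.53) in ileum and from 4.14 to 5.08 (median 4.97) in colon, a difference of 2.72. In Hoxa11os/Hoxa11as, the antisense RNA of a posterior homeobox gene, 2 of 27 rows were called, at -2.56 and -1.32. Rian/DQ267101 had 1 of 4 rows called, at -2.55, which lay from 2.98 to 5.18 in ileum and from 5.4 to 7.94 in colon. Azin2/Adc, an inhibitor of antizyme in polyamine control, had 1 junction row higher by 1.67 out of 34. H2-T3/H2-T18, non-classical class I genes of the major histocompatibility complex, had 1 junction row higher by 1.34 out of 32.

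For 551 strings every gene also had rows of its own. Across these strings, which are not independent replicates and share the same 12 arrays, the ileum minus colon difference of the shared rows correlated with that of the brightest gene at r = 0.472, and at r = 0.68 for the 199 strings in which both levels were above 4 on the log2 scale. Of 16 strings of that kind with own differences beyond 0.5, 15 had the same sign in the shared rows. In 34 pairs whose own differences were more than 0.5 apart, the shared rows were nearer to the first gene in 16. Own rows with the same values as a shared row were kept in these comparisons. Part of the match between shared and own rows may therefore be a value set against itself.

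**Figure D4:**
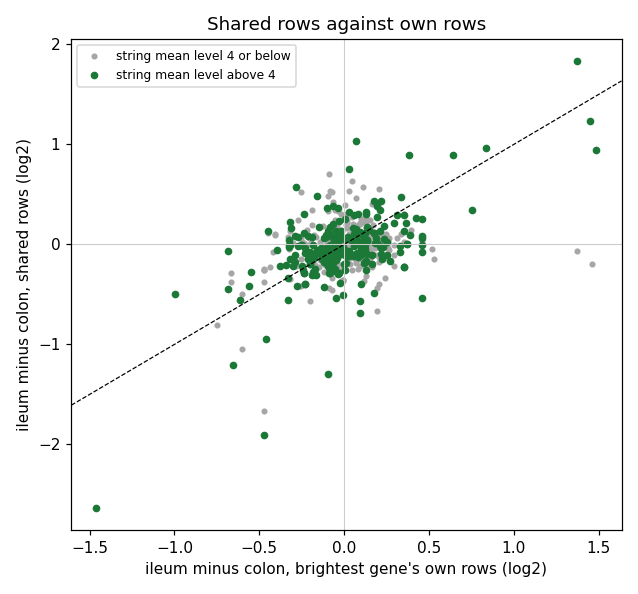
Ileum minus colon difference of shared rows (vertical, log2) against that of own rows of the brightest gene (horizontal, log2) for 551 strings, with strings whose mean level is above 4 in green, the others in grey and equal differences on the dashed line. Most strings lie near 0 on both axes, and the few beyond 1 include St6galnac6/St6galnac4 at -2.63 against -1.46.

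Identical values were common in these rows. Of the 18694 rows 5180 (27.71%) had values identical on all 12 arrays to another row, against 1.84% of rows with 1 symbol and 3.33% of rows without a symbol. The share was 78.0% in strings made only of predicted genes and 28.6% in strings of named genes, and 2.4% in strings of 1 current gene. It was 20.9% among histone strings, 0.7% among ribosomal protein strings and 0.0% among clustered protocadherin strings. In all, 872 strings held such a row and 386 consisted of such rows alone.

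The target of the knockout was itself on shared rows. Ppard overlaps 1810013A23Rik, and 1810013A23Rik/Ppard had 3 exon rows. In ileum it had 4.13, 4.56 and 4.10 in the knockout arrays, against 4.49, 4.80 and 4.44 in the floxed arrays. In colon it had 4.42, 4.21 and 4.63 in the knockout arrays, against 4.39, 4.49 and 4.62 in the floxed arrays. The groups overlapped in both tissues, and the difference over both was -0.20 (adjusted p = 0.526), or 0.04 with the array background as covariate. Ppard/1810013A23Rik had 2 junction rows at 4.62, 4.58 and 3.73 in knockout ileum, against 3.89, 4.49 and 3.44 in floxed ileum, and at 4.31, 3.63 and 3.62 in knockout colon, against 4.48, 3.55 and 4.30 in floxed colon. The 23 own rows of Ppard gave 0.27 over both tissues and were not called. The labels do not say which exon was deleted, so rows outside it check nothing.

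No string was called between knockout and floxed mucosa in ileum, in colon or over both tissues, and none in the test of whether the genotype difference depended on tissue, by limma over all 34084 features, of which 0% were called in each of these comparisons. At an unadjusted p under 0.05, 235 strings (8.70%) stood out in ileum, against 6.67% of all features, 184 (6.81%) in colon, against 4.81%, and 327 (12.1%) over both, against 10.6%. For the difference between tissues the count was 98 (3.63%), against 2.52%. Knockout and floxed arrays did not overlap in 293 strings (10.8%) in ileum, against 11% of all features, and in 255 (9.44%) in colon, against 10.2%. No single row among the 18694 was called by genotype in any of these comparisons, where 0% of all rows were.

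Among the strings named by the fixed rule, the smallest p of the ileum comparison belonged to Hyal1/Nat6, which pairs a hyaluronidase with its overlapping neighbour, now Naa80, the acetyltransferase of actin. In ileum it had 3.66, 3.81 and 3.98 in the knockout arrays, against 4.64, 4.59 and 4.63 in the floxed arrays. In colon it had 4.34, 4.43 and 4.58 in the knockout arrays, against 4.27, 4.38 and 4.37 in the floxed arrays. The ileum groups did not overlap and differed by -0.81 ± 0.13 (adjusted p = 0.452), and the test between tissues gave -0.91 ± 0.19 (adjusted p = 1). The mean of the rows in place of the median gave -0.14 in ileum, the 2 junction rows alone gave 0.05, the reverse string Nat6/Hyal1 overlapped between genotypes, and the 11 own rows of Hyal1 gave 0.34.

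Other strings with small p did not pass adjustment either. Rbm14-rbm4/Rbm14/Rbm4/Gm21992, a readthrough of 2 RNA-binding protein genes, had 4.21, 3.10 and 3.04 in knockout ileum, against 4.75, 4.40 and 4.61 in floxed ileum, a difference of -1.13 ± 0.27, or 0.05 in its junction rows alone. A string of 9 alpha-protocadherin symbols, cell adhesion genes with variable first exons and shared later ones, had 4.01, 3.93 and 3.97 in knockout ileum, against 4.65, 4.88 and 4.68 in floxed ileum, and 4.18, 4.63 and 4.45 in knockout colon, against 4.62, 5.19 and 4.93 in floxed colon. It gave the smallest p over both tissues among the strings named, with a difference of -0.63 ± 0.12 (adjusted p = 0.465). Over the alternative runs that difference lay between -0.74 and -0.17. The 46 clustered protocadherin strings had a median of -0.19 with 11 positive, and 0.06 with 27 positive when the array background was a covariate. Arglu1/Mir7654/mmu-mir-7654, on a splicing regulator gene that carries a microRNA, had 9.56, 9.40 and 9.76 in knockout ileum, against 10.45, 10.31 and 10.18 in floxed ileum.

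Strings of the dynein light chain copies Dynlt1f, Dynlt1c, Dynlt1a and Dynlt1b were read by 9 rows, all with a positive genotype difference. In colon they had 6.17, 5.84 and 5.32 in the knockout arrays, against 5.11, 4.5 and 4.55 in the floxed arrays, a difference of 1.05 ± 0.31 (adjusted p = 0.849). In ileum they had 6.46, 5.17 and 5.90 in the knockout arrays, against 5.30, 4.97 and 5.49 in the floxed arrays, which overlapped. The difference over both tissues was 0.82 ± 0.22, and 0.18 with the array background as covariate. Has2os/Has2as, the antisense RNA of a hyaluronan synthase gene, had 3.89, 4.04 and 3.78 in knockout colon, against 4.70, 5.22 and 4.90 in floxed colon, and all 7 of its rows were negative. The difference was -1.04 ± 0.26 (adjusted p = 0.849), and -0.39 with the mean of the rows and -0.12 in junction rows alone.

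Gnb2/Mir6418/mmu-mir-6418, a row on a G protein beta subunit gene that carries a microRNA, had 9.75, 9.72 and 9.43 in knockout ileum, against 8.74, 8.36 and 9.08 in floxed ileum, and 9.95, 9.57 and 9.16 in knockout colon, against 9.49, 8.38 and 8.64 in floxed colon. The ileum groups did not overlap, the colon groups did, and the difference over both tissues was 0.82 ± 0.20 (adjusted p = 0.465), or 0.22 with the array background as covariate. A string of 13 histone H4 symbols had 5.52, 5.4 and 5.37 in knockout ileum, against 5.11, 4.97 and 5.23 in floxed ileum, and 5.57, 5.56 and 5.35 in knockout colon, against 5.29, 4.5 and 4.84 in floxed colon. It was one of 8 strings (0.296%, against 0.378% of all features) in which no knockout array overlapped a floxed array over both tissues, and it differed by 0.47 ± 0.13 (adjusted p = 0.465), or 0.22 with that covariate. Further strings named in colon, none called, were Ccpg1os/Gm5918 at 0.70 ± 0.17, Tmem181b-ps/Tmem181a at 1.04 ± 0.29, D5Ertd577e/Gm3286 at -0.68 and Adam12/5830403F22Rik, on a metalloprotease gene, at -0.68. Several of these colon values turned with the rows used, since D5Ertd577e/Gm3286 gave 0.36 in junction rows and Tmem181b-ps/Tmem181a gave -0.02 in exon rows.

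Ribosomal protein strings, in which a gene shares rows with its processed pseudogenes, leaned towards the knockout arrays. The median over the 70 strings was 8.05, 6.93 and 7.41 in knockout ileum, against 6.95, 6.40 and 7.22 in floxed ileum, and 8.26, 7.45 and 6.98 in knockout colon, against 7.49, 7.35 and 6.91 in floxed colon. The groups overlapped in both tissues. Over both tissues the median difference was 0.41 with 51 of 70 positive, against -0.02 over all features, and none was called. In ileum it was 0.48, and 0.26 without ileum knockout sample 1, and over both tissues 0.28 with 54 positive without that array. Rpl34/Rpl34-ps1/Gm4705/Gm6404 had 7.95, 7.93 and 8.10 in knockout ileum, against 7.31, 6.61 and 7.45 in floxed ileum, a difference of 0.87 ± 0.26 (adjusted p = 0.711), or 0.17 with the background covariate described next.

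The array background moved with genotype. The mean of the background probes with 15 to 25 G or C bases was 6.01 to 6.38 in knockout ileum, against 6.60 to 7.06 in floxed ileum, and 6.32 to 6.76 in knockout colon, against 6.60 to 6.97 in floxed colon. With it as a covariate the median of the ribosomal strings was -0.18 with 17 of 70 positive, so their direction turned. The 6 strings of mitochondrial respiratory chain genes, such as Cox5b/Gm11273 and Ndufa11/Gm4943, had a median of 0.59 without and 0.01 with the covariate. The 277 strings of genes on different chromosomes, to which most of the ribosomal strings belong, had a median of 0.26 with 211 positive without it. Its part in these differences was not tested beyond that fit.

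**Figure D5:**
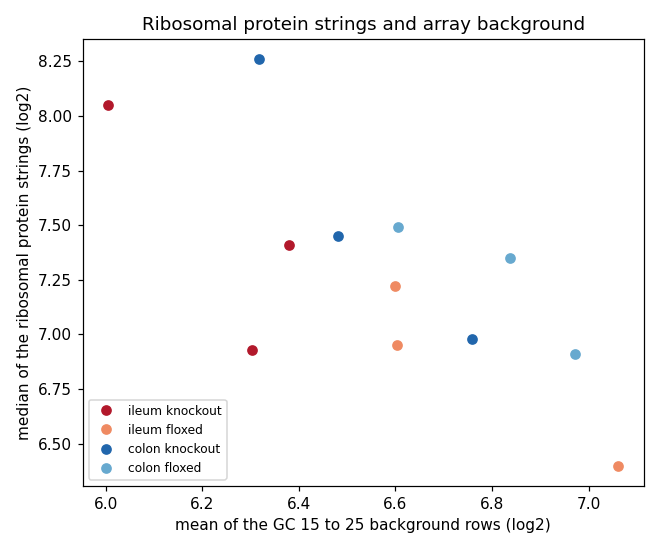
Median log2 level of the 70 ribosomal protein strings on each of the 12 arrays (vertical) against the mean log2 level of the background probes with 15 to 25 G or C bases (horizontal), by group from ileum knockout to colon floxed. Knockout arrays lie towards lower background, and ileum floxed sample 2, with the highest background, has the lowest median at 6.40.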

How the data were processed

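The deposited values are on the log2 scale, 1 per array row; the submitters' processing notes name RMA and Partek, with no version, role or order given. Gene symbols came from the platform annotation and were updated through RefSeq (GRCm38.p6), and 45 of 4036 symbols stayed unresolved. From these log2 values, rows with the same string of symbols were reduced to their median per array, which gave 34084 features, 2701 of them of several symbols. Differences were tested by fitting 4 group means to all 12 arrays with limma's lmFit and eBayes (limma 3.58.1, R 4.3.3), adjusted by the Benjamini-Hochberg method over all features and called at 0.05. Single rows were fitted likewise over all 719071. On simulated data for ileum against colon over both genotypes (34084 features, 100 changed by each size), the test recovered 91% of changes of 1 and 100% of changes of 2 on the log2 scale, with 10 false calls; the smaller genotype comparisons were not simulated. Strings were named by size among those called without overlap, by smallest p within gene families and within genotype comparisons. Strings made only of predicted genes, small RNAs, chemoreceptors or immune segments were counted and not named. The members and lists were chosen with earlier results of these data known. Rows without a symbol entered the row fits alone, and 6607 control rows were left out except as array background.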

Additional observations from a re-analysis of the deposited data

How the results depend on the processing

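Between genotypes, and for the dependence of genotype on tissue, 0 strings were called under each alternative run. The 32 strings called between ileum and colon became 13 with junction rows alone, 56 with array background as covariate (20 higher and 36 lower, so mostly lower, against 19 higher and 13 lower) and 19 with strings of the same genes merged. The 19 of knockout mice became 8 with junction rows and 30 with background, and the 13 of floxed mice became 4, 23 and, with array weights, 22. Leaving out 1 array gave 23 to 34 strings over both genotypes, 14 to 22 in knockout mice and 10 to 17 in floxed mice, and 105 to 141 rows. The cause of these shifts was not tested.

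The labels do not state whether equal sample numbers pair the samples. The correlations of their deviations ran from -0.247 to 0.528 and, being mixed, cannot decide it. Between samples numbered 1 every correlation was positive, from 0.211 to 0.528, while the other sample numbers gave both signs. With the replicate block 41 strings were called over both genotypes, 21 in knockout and 19 in floxed mice, and 168 rows. Of the floxed calls 16 were higher, against 10 without the block.

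Some directions turned. With junction rows alone, Gm14850/Gm21498 gave -0.19 and Klk1b26/Egfbp2 0.75 between tissues. By genotype, junction rows gave Hyal1/Nat6 0.05 in ileum, 0.03 over both and 0.05 for the dependence on tissue, Rbm14-rbm4/Rbm14/Rbm4/Gm21992 0.05 in ileum and 0.09 for the dependence, and D5Ertd577e/Gm3286 0.36 in colon. Exon rows alone gave Tmem181b-ps/Tmem181a -0.02 in colon. Merged strings gave Adam12/5830403F22Rik 0.26 in colon, Scgb2b1/Scgb2b23-ps -0.07 in ileum, and Ppard/1810013A23Rik -0.18 over both and -0.32 in ileum. Over both, Ppard/1810013A23Rik gave -0.03 with background, 0 with array weights and -0.08 to 0.2 on leaving out 1 array. With background, 1810013A23Rik/Ppard gave 0.04 over both and 0.09 in colon, where leaving out 1 array gave -0.19 to 0.02. Values near the floor of the array have little signal over background, which limits dim strings.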
